A study of Mus musculus with 6 samples.

Results

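The genes of extracellular matrix breakdown, its inhibition and collagen crosslinking were taken from a table of gastrocnemius (calf) muscle of wild type mice. Members were the protein-coding genes named as matrix metalloproteinases (Mmp), tissue inhibitors of metalloproteinases (Timp), ADAMTS proteases (Adamts), ADAMTS-like proteins (Adamtsl) and lysyl oxidases (Lox and Loxl). There were 56 of 46504 features: 23 Mmp, 4 Timp, 19 Adamts, 5 Adamtsl and 5 Lox genes. PolyA RNA was sequenced in 3 control libraries and 3 restraint libraries, and both groups carry the label day 4. Per the labels' protocols, restraint was done in tubes of 50 mL for 3 h at a time, every 4 days. Age, sex, the state of the control mice and the time since the last restraint are not given in the sources used here. The series' title concerns neuroinflammation and its interaction with skeletal muscle under this stress.

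Matrix metalloproteinases and ADAMTS enzymes are zinc-dependent proteases, made as inactive precursors, that cut collagens, proteoglycans and other matrix proteins. TIMP proteins bind their active sites and block them. ADAMTS-like proteins lack the protease domain and sit in the microfibril network, and lysyl oxidases crosslink collagen and elastin into stable fibres. In muscle much of this system is made by fibroblasts, tendon cells, vessel cells and macrophages that lie between the fibres.

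Total counts ran from 44290720 to 51125779 per library, of which the members took 0.0446% to 0.0572%. Of the 56 members, 50 had at least 1 count and 39 had enough counts to be tested across all 15448 tested features. The label of the tissue held: the summed CPM (reads per 1e6 reads of a library) of 8 muscle fibre markers was between 129358 and 139759 in every library. Libraries of a group differed by more than sampling noise, with chi-square per degree of freedom of 27.2 or more. Nothing in the labels ties a library to its own mouse, so the p-values cover the spread among these libraries, whatever its source. Restraint 2 held the highest restraint value of most members, and a log2 fold change that changes sign or moves by more than 1.5 times without it is given both ways.

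A single member passed the test. Timp4, an inhibitor strongly made in heart and skeletal muscle, fell in restraint, and none of the 39 tested members passed as higher. By edgeR's quasi-likelihood test with an adjusted p under 0.05, that is 2.56% of tested members, where 1.83% of all tested features were called and 0.563% were called lower. The restraint and control libraries did not overlap for 9 of the 39 tested members, or 23.1%, against 21.8% of all tested features. An unadjusted p under 0.05 was reached by 11 of the 39, where 15.6% of all tested features reached it. Among the 9 members without overlap, 3 stood higher and 6 lower in restraint. Over the 39 members the median log2 fold change of restraint over control was -0.059, with 19 positive and 20 negative, against -0.0053 over all tested features. The members' shares called and without overlap were near those of all features, and their share with an unadjusted p under 0.05 was larger.

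**Figure D1:**
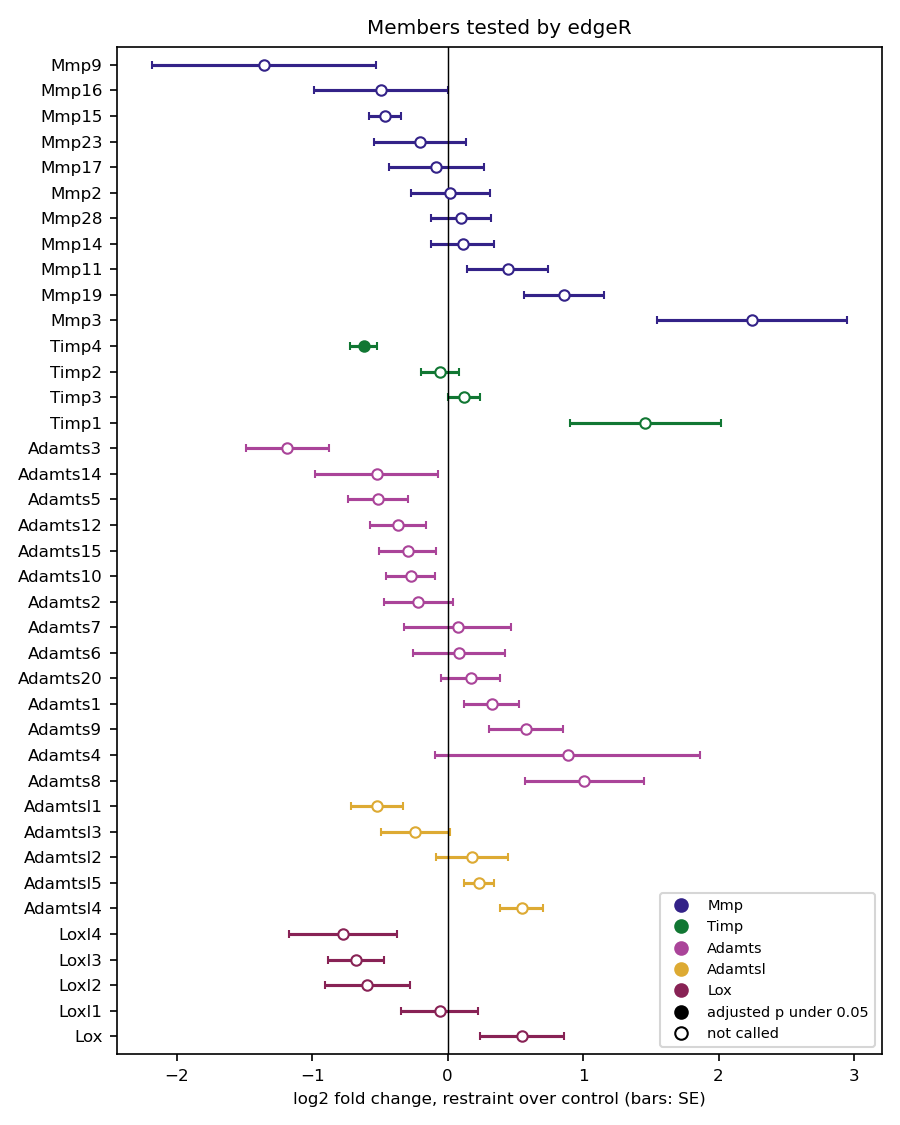
Log2 fold change of restraint over control (x axis, with bars of 1 SE) for the 39 tested members, by family. The filled point is Timp4 at -0.62, and the open points of the other 38 members did not pass the test.

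Among the inhibitors, Timp4 stood at 47.1, 43.8 and 45.3 CPM in controls 1 to 3 against 31.2, 26.9 and 30.6 CPM in restraint 1 to 3. All restraint libraries lay below all controls. Its mean went from 45.4 ± 1.63 to 29.5 ± 2.33 CPM (SD, n = 3 per group). On the log2 scale restraint stood at -0.62 ± 0.10 (SE) relative to control, and edgeR's adjusted p was 0.0239. In bulk tissue, fewer cells that make Timp4 and less Timp4 RNA per cell cannot be told apart. The direction was the same without any 1 library, from -0.66 to -0.56 on the log2 scale. The call, however, was kept only without restraint 1 (edgeR adjusted p = 0.0369). It was lost without control 1 (0.149), control 2 (0.0616), control 3 (0.0503), restraint 2 (0.0687) and restraint 3 (0.0978). DESeq2 and limma voom called it too, and the call was lost by limma on the authors' FPKM or TPM, with adjusted p from 0.0656 to 0.111.

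Timp4 (gene 110595) lies on chromosome 6 from 115244444 to 115252205 on GRCm38, inside Syn2, a synapsin gene on the opposite strand. Timp3 and Timp1 lie likewise inside Syn3 and Syn1. The sources used here do not say whether counting used strand, so reads of such pairs could not be told apart where their exons meet. The shared exon sequence was 90 of 5894 bases for Timp4, 1733 of 8144 for Timp3 and 0 of 888 for Timp1 in the GENCODE annotation. Syn2 itself had 29 to 65 reads per library against 1254 to 2469 for Timp4, and Syn3 had 1 to 11 against 6362 to 8569 for Timp3.

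The other inhibitors did not pass. Timp3, which binds to the matrix and also blocks ADAMTS enzymes, stood at 129.9, 162 and 157 CPM in controls 1 to 3 against 176, 149.9 and 163 CPM in restraint 1 to 3. Its groups overlapped, with a log2 difference of 0.12 ± 0.12 (edgeR adjusted p = 0.694). For Timp2, which inhibits and also helps to activate Mmp2, the libraries stood at 70.4, 68.0 and 68.2 CPM in controls against 56.3, 81.0 and 60.8 in restraint. Restraint 2 was above all controls and the other restraint libraries below them, with a log2 fold change of -0.060 ± 0.14, or -0.23 ± 0.11 without restraint 2. Timp1, an inhibitor known to be induced in injury and inflammation, was the scarcest. Its controls were at 0.327, 0.609 and 0.459 CPM, restraint 1 at 0.359 and restraint 2 and 3 at 1.86 and 1.597. With a log2 fold change of 1.46 ± 0.56 it had an edgeR adjusted p of 0.252, and 0.0363 without restraint 1. Restraint 1 was its lowest restraint library, so the call without that library is a description and not support.

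By level per length, in the authors' TPM, which divides reads by transcript length, the inhibitors were ordered Timp3, Timp2, Timp4 and Timp1. In controls their levels were 55.5 ± 9.17, 33.0 ± 4.31, 17.5 ± 1.45 and 0.865 ± 0.20 TPM, and in restraint 61.4 ± 3.24, 32.5 ± 8.58, 11.5 ± 1.26 and 2.51 ± 1.67 TPM (SD, n = 3). In every library these neighbours kept this order. The 4 inhibitors summed to 106.9 ± 12.4 TPM in controls and 107.9 ± 8.05 in restraint, and the fall of Timp4 was a small part of that sum. All Mmp genes together summed to 37.3 ± 7.73 TPM in controls and 38.3 ± 17.0 in restraint. The ratio of the inhibitor sum to the Mmp sum was 2.65, 3.36 and 2.72 in controls 1 to 3 against 3.84, 2.02 and 3.42 in restraint 1 to 3. The restraint libraries lay on either side of the controls, with restraint 2 lowest.

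**Figure D2:**
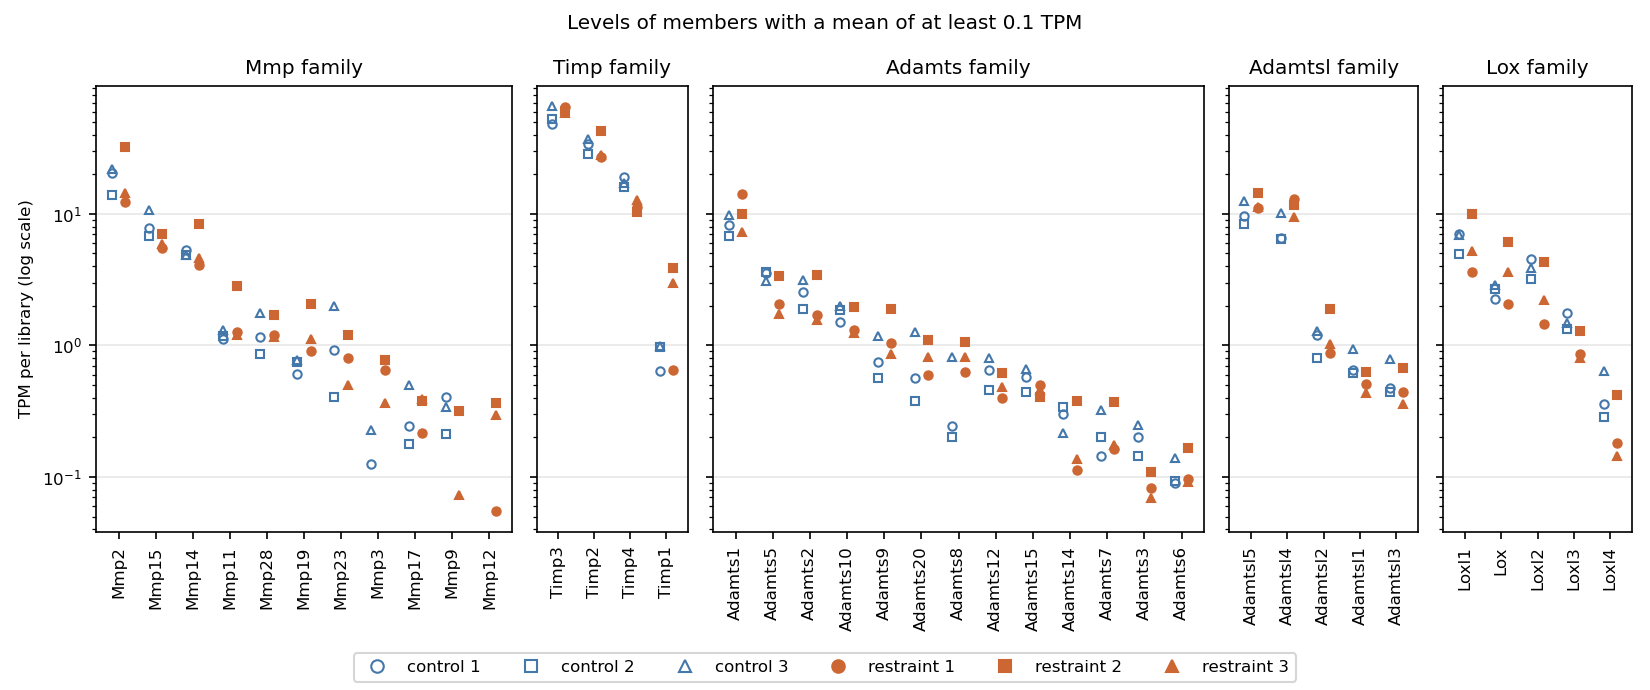
TPM per library (log scale) of the 38 members with a mean of at least 0.1 TPM, by family and in order of mean level; open blue symbols are controls, filled orange symbols restraint, and values of 0 are not drawn. Timp3, Timp2 and Mmp2 lead at 55.5, 33.0 and 18.7 TPM in controls, and the square of restraint 2 is the top orange symbol for most members.

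None of the 11 tested Mmp genes passed by edgeR, while 3 had an unadjusted p under 0.05. DESeq2 called Mmp15 and also Mmp12, whose counts all lay in restraint libraries, and limma voom called none. Mmp2, the gelatinase that cuts denatured collagen and basement membrane, was the most abundant protease, at 18.7 ± 4.29 TPM in controls and 19.6 ± 10.98 in restraint. It stood at 36.3, 28.2 and 34.3 CPM in controls 1 to 3 against 21.7, 52.3 and 26.2 CPM in restraint 1 to 3. Restraint 2 was above all controls, while restraint 1 and 3 were below them. The log2 fold change was 0.019 ± 0.29 (edgeR adjusted p = 0.987) with restraint 2 and -0.46 ± 0.15 (0.247) without it. Mmp9, the other gelatinase, a protease of leukocytes, stood at 0.858, 0.536 and 0.642 CPM in controls against 0, 0.621 and 0.162 in restraint, with overlapping groups. Its log2 fold change was -1.36 ± 0.83 (edgeR adjusted p = 0.489), and -3.04 ± 0.84 (0.177) without restraint 2. The restraint libraries alone would not have passed Mmp9 through the count filter, so these values are a description.

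Of the membrane-bound proteases, Mmp15 stood at 19.6, 19.4 and 23.4 CPM in controls against 13.8, 16.2 and 15.2 in restraint. All restraint libraries were below all controls, by a log2 fold change of -0.46 ± 0.12. The edgeR adjusted p was 0.101 and that of DESeq2 0.0477, so the call depended on the tool. Mmp14, which activates the precursor of Mmp2 at the cell surface, stood at 11.7, 12.2 and 9.38 CPM in controls against 8.94, 16.8 and 10.1 in restraint. Again only restraint 2 exceeded the controls, and the log2 fold change of 0.11 ± 0.23 was -0.22 ± 0.16 without restraint 2. In TPM, Mmp2, Mmp15 and Mmp14 were separate and in that order in the controls, at 18.7, 8.42 and 5.01. In restraint the libraries of Mmp15, at 6.17 ± 0.814 TPM, and Mmp14, at 5.69 ± 2.34 TPM, overlapped. The other membrane-bound members were scarce: Mmp17 had a mean of 0.996 CPM over the 6 libraries and Mmp16 0.284, with log2 fold changes of -0.084 (-0.031 without restraint 2) and -0.49, while Mmp25 and Mmp24 had too few counts to test.

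Mmp19, a basement membrane protease, was the other member of this family above 1 CPM whose groups did not overlap. Controls were at 1.20, 1.71 and 1.36 CPM and restraint libraries at 1.80, 3.64 and 2.29, the lowest of them barely above the highest control. Its log2 fold change was 0.86 ± 0.29 with an edgeR adjusted p of 0.201, and 0.53 ± 0.26 (0.46) without restraint 2. Its exons share 789 of 3533 bases with Tmem198b on the opposite strand, which had 119 to 188 reads per library against 59 to 170 for Mmp19. Mmp11, Mmp28 and Mmp23 had log2 fold changes of 0.44, 0.097 and -0.20, all with overlapping groups. Without restraint 2 these were 0.038, -0.039 and -0.47.

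**Figure D3:**
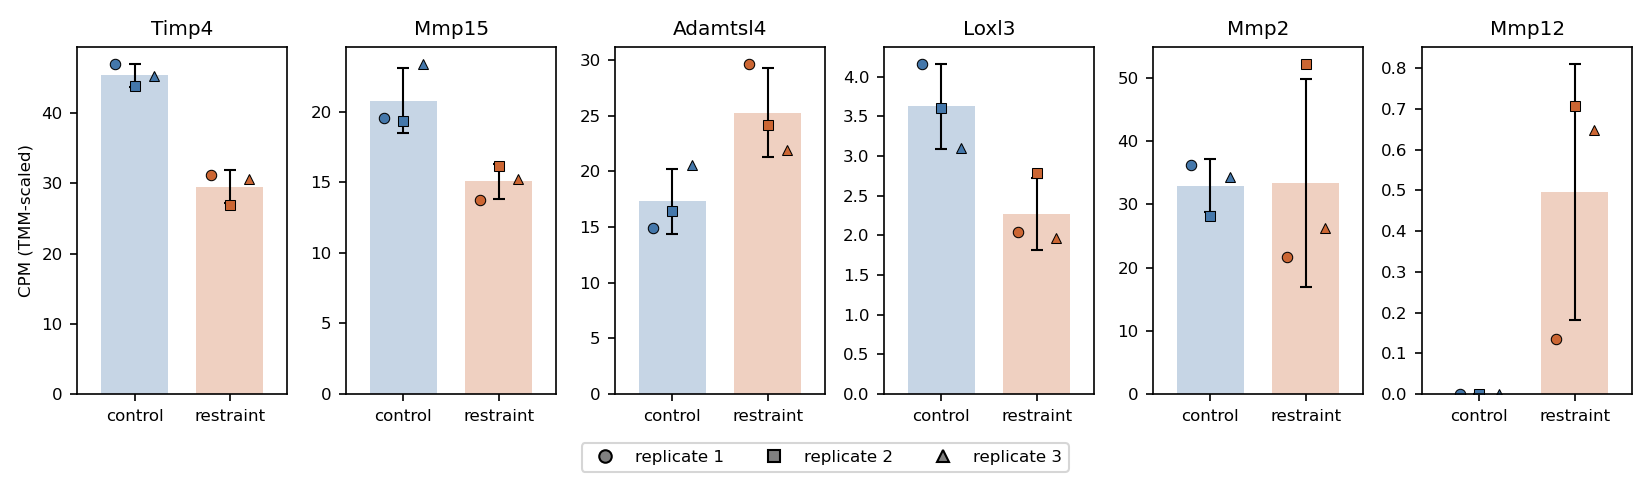
TMM-scaled CPM per library (points), with the mean (bar) and SD (whiskers, n = 3), for 6 members in control and restraint. Timp4, Mmp15 and Loxl3 lie lower and Adamtsl4 higher in all restraint libraries, Mmp2 ranges from 21.7 to 52.3 CPM in restraint, and Mmp12 is at 0 in every control.

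A cluster of 10 Mmp genes lies on chromosome 9 between positions 7272514 and 7699585, and it was nearly silent in control muscle. Mmp1a, Mmp1b, Mmp7 and Mmp20 had no count in any library, and Mmp8, Mmp10 and Mmp13 had 12, 6 and 4 counts over all 6. Mmp21, which lies elsewhere, had none either. Mmp12, the elastase typical of macrophages, had 0 counts in all 3 controls and 6, 33 and 28 counts in restraint 1 to 3, with 95% exact Poisson intervals of 2.202 to 13.1, 22.7 to 46.3 and 18.6 to 40.5. That is 0.135, 0.707 and 0.648 CPM, where a count of 0 allows up to 3 counts (1-sided 95% limit), or 0.0551 to 0.0731 CPM in the controls. The observed restraint mean of Mmp12 was 7.86-fold that of the controls, taking each control library at that floor. This value leaves out the error of the restraint mean, and the interval of restraint 1 begins below 3 counts. Intervals and floor cover counting error only. Mmp12 missed the count filter and was not tested with the others. With no filter it was called higher (edgeR adjusted p = 0.0345), as it was by DESeq2 (0.000204). All its counts lie in the restraint libraries, so these calls are a description and not support. It passed the filter, through the restraint libraries alone, in the fits without control 1, 2 or 3 (edgeR adjusted p = 0.183, 0.111 and 0.102) and without restraint 1 (0.0202), and these values are a description and not support.

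Mmp3, the stromelysin that cuts proteoglycans and activates other Mmp precursors, was the cluster's only tested gene. It had 7, 0 and 12 counts in controls and 31, 35 and 17 in restraint, and the groups did not overlap. Its log2 fold change was 2.25 ± 0.70 with an edgeR adjusted p of 0.169. The controls alone would not have passed the count filter, so these values are a description and not support. Mmp8, the collagenase of neutrophils, and Mmp10 were counted in restraint 2 alone, at 12 and 6 counts. Mmp27 had 8, 0 and 0 counts in controls and 4, 11 and 0 in restraint. Macrophage markers stood highest in the restraint libraries with the most Mmp12: the sum of 8 of them was 47.4 to 64.6 CPM in controls against 59.8, 181 and 94.4 in restraint 1 to 3. Cd68, a lysosomal protein of macrophages, was the 1 of the 8 called, at 1.41, 1.24 and 1.12 CPM in controls against 2.29, 13.6 and 11.5 in restraint (edgeR adjusted p = 0.044), and none of the 8 was at 0. That call was lost without control 1 (edgeR adjusted p = 0.198), control 2 (0.137), control 3 (0.125), restraint 2 (0.109) and restraint 3 (0.14). DESeq2 called Cd68 (0.0028), while limma voom (0.196), edgeR with robust dispersion (0.126) or library totals (0.0505) and limma on TPM or FPKM (0.0912 to 0.11) did not. Of 5 neutrophil markers, which summed to 0.122 to 0.165 CPM in controls against 0.382, 1.93 and 0.902 in restraint, Ly6g was at 0 throughout. The part of either cell type in the Mmp counts was not tested.

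The promoter windows of Timp4, the called member, and of Mmp12 and Mmp3, the cluster genes with the most counts, are shown to set out where the motif TGANTCA lies. They run from 250 bases before to 50 after an annotated start, from RefSeq on GRCm38.p6. Capitals mark TGANTCA, the site of the AP-1 factors, read on both strands; AP-1 is known for its role at Mmp promoters.
Timp4, chr6:115252156-115252455, minus strand: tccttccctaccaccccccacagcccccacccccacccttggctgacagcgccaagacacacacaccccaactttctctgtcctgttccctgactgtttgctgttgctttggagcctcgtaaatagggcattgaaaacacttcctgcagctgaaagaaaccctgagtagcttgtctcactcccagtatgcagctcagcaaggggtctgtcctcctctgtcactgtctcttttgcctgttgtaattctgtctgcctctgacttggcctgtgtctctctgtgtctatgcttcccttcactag
Mmp12, chr9:7344147-7344446, plus strand, gene start: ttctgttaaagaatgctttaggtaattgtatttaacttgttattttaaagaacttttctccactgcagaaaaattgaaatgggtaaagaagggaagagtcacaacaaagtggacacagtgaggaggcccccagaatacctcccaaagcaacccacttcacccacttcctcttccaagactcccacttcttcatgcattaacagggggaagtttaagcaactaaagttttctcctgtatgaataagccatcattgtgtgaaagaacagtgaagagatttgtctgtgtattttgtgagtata
Mmp12, chr9:7347124-7347423, plus strand, downstream start: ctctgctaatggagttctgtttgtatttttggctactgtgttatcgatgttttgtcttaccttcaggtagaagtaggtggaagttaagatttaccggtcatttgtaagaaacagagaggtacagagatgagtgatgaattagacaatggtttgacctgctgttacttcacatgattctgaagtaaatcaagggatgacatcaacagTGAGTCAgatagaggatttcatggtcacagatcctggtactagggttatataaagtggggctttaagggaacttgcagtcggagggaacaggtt
Mmp3, chr9:7445572-7445871, plus strand: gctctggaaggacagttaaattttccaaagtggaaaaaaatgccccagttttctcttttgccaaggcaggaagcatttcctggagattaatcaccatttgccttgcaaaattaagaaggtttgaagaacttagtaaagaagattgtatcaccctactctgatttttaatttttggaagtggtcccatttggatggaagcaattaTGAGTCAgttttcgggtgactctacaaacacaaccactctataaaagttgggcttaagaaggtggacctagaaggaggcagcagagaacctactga
The matches begin at position -44 of the downstream Mmp12 start and at position -46 of the Mmp3 start, with the same letters, and the other windows shown have none. Windows were read for 37 members, and 8 of the 40 windows hold the motif, against 7.81% of all 32851 windows of that length. All 8 belong to genes of the chromosome 9 cluster, and none of the 28 windows of the 27 other members read holds it. Mmp1a, Mmp1b, Mmp7 and Mmp20 are among the 8 genes with the motif and had no counts. The glucocorticoid motif AGAACA and the E-box motif CANNTG were read in the same windows and are not marked above. AGAACA was in 7 of the 40 member windows, against 19.0% of all windows. CANNTG was in 28 of the 40, against 72.3%. Of the windows shown, that of the Mmp12 gene start holds AGAACA, beginning at position 11. The other windows shown hold CANNTG. The matches are a description of sequence.

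None of 14 tested Adamts genes passed by edgeR, DESeq2 or limma voom, and 3 had an unadjusted edgeR p under 0.05. Adamts1, which cuts the proteoglycan versican, was the most abundant of them at 8.28 ± 1.51 TPM in controls and 10.5 ± 3.40 in restraint. It stood at 23.3, 21.9 and 24.4 CPM in controls against 39.8, 26.0 and 21.3 in restraint. Restraint 1 was far above the rest and the groups overlapped, with a log2 fold change of 0.32 ± 0.20 (edgeR adjusted p = 0.508) that was 0.029 without restraint 1. Adamts5, the main aggrecan-cutting enzyme of mouse cartilage, stood at 16.0, 18.4 and 12.2 CPM in controls against 9.62, 14.5 and 8.40 in restraint. Restraint 2 overlapped the controls, and the log2 fold change was -0.52 ± 0.22 (edgeR adjusted p = 0.314), or -0.78 ± 0.19 (0.13) without restraint 2. In TPM the libraries of Adamts1 lay above those of Adamts5 in both groups, while Adamts5 and Adamts2 overlapped.

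Of the other enzymes that cut proteoglycans, Adamts15 was at 1.96, 1.75 and 2.001 CPM in controls against 1.73, 1.29 and 1.64 in restraint. The groups were apart by the narrow step from 1.75 to 1.73, and the log2 fold change of -0.30 ± 0.21 had an edgeR adjusted p of 0.566; without restraint 2 it was -0.18. Adamts8, an enzyme known for blocking vessel growth, was at 0.653, 0.609 and 1.95 CPM in controls against 1.69, 2.61 and 2.24 in restraint. Control 3 lay among the restraint libraries: the log2 fold change was 1.01 ± 0.44 (edgeR adjusted p = 0.315), and 1.78 (0.0436) without control 3. Control 3 was the highest control of this gene, so the call without it is a description and not support. For Adamts9, Adamts20 and Adamts4 the log2 fold changes were 0.58, 0.17 and 0.89, with overlapping groups. Without restraint 2, Adamts9 stood at 0.25 and Adamts4 at -0.31.

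The procollagen N-proteinases, which trim the ends of fibrillar procollagens before fibres form, all had negative log2 fold changes, and none passed. Adamts3 had the clearest separation, at 0.878, 0.731 and 0.973 CPM in controls against 0.359, 0.450 and 0.324 in restraint. Every restraint library was below every control, and the log2 fold change was -1.18 ± 0.31 with an edgeR adjusted p of 0.104. Adamts2, the most abundant of them, was at 10.6, 9.11 and 11.7 CPM in controls against 7.12, 13.3 and 6.71 in restraint, with restraint 2 above all controls. Its log2 fold change was -0.22 ± 0.25, and -0.60 ± 0.16 without restraint 2 (edgeR adjusted p = 0.155). For Adamts14 it was -0.52 ± 0.45, and -1.13 ± 0.42 without restraint 2. Adamts12 and Adamts7, which cut the cartilage matrix protein COMP, had log2 fold changes of -0.37 and 0.073, and the fibrillin-linked Adamts10 and Adamts6 -0.27 and 0.083. Without restraint 2, Adamts7 stood at -0.34 and Adamts6 at -0.16. Adamts17, Adamts18 and Adamts19 had between 4 and 27 counts over all libraries, and Adamts13, which cuts von Willebrand factor and is made in liver, had none. Adamts16 had 7, 11 and 13 counts in controls and 0, 0 and 2 in restraint, too few to be tested with all libraries.

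The ADAMTS-like genes Adamtsl5 and Adamtsl4 stood near Mmp15 and Adamts1 in level, at 10.2 ± 2.11 and 7.73 ± 2.18 TPM in controls. In TPM the libraries of these 2 genes overlapped in both groups. Adamtsl4, a fibrillin-binding protein of the lens zonule, stood at 14.9, 16.4 and 20.5 CPM in controls against 29.7, 24.2 and 22.0 in restraint. All restraint libraries were above all controls, with a log2 fold change of 0.55 ± 0.16. Its adjusted p was 0.135 by edgeR and 0.0429 by DESeq2. Adamtsl5, also found with fibrillin microfibrils, was at 19.9, 20.2 and 22.8 CPM in controls against 22.8, 26.7 and 24.4 in restraint. The highest control exceeded the lowest restraint library by a hair, and the log2 fold change was 0.23 ± 0.11 (edgeR adjusted p = 0.35). Adamtsl1 went the other way, at 3.78, 3.58 and 4.46 CPM in controls against 2.61, 3.34 and 2.29 in restraint, apart but not past the test (log2 fold change -0.52 ± 0.19, edgeR adjusted p = 0.24). For Adamtsl2 and Adamtsl3 the log2 fold changes were 0.18 and -0.24, and -0.16 and -0.46 without restraint 2. None of the 5 ADAMTS-like genes passed by edgeR or limma voom, 2 had an unadjusted p under 0.05, and DESeq2 called Adamtsl4.

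Of the 5 lysyl oxidases, 4 had negative log2 fold changes and Lox a positive one. None passed by edgeR, DESeq2 or limma voom, and 1 had an unadjusted edgeR p under 0.05. That gene, Loxl3, stood at 4.17, 3.61 and 3.10 CPM in controls against 2.04, 2.78 and 1.97 in restraint. The groups did not overlap, and the log2 fold change was -0.68 ± 0.21 with an edgeR adjusted p of 0.162. Its exons share 535 of 4603 bases with Htra2 on the opposite strand, which had 456 to 662 reads per library against 85 to 204 for Loxl3. Loxl2, an oxidase active on basement membrane collagen, stood at 13.9, 11.3 and 10.5 CPM in controls against 4.47, 12.2 and 7.08 in restraint. Restraint 2 was among the controls, and the log2 fold change of -0.59 ± 0.31 (edgeR adjusted p = 0.412) was -1.05 ± 0.23 (0.0942) without restraint 2.

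Lox, the founding collagen and elastin crosslinker, stood at 6.37, 8.65 and 7.20 CPM in controls against 5.86, 16.0 and 10.6 in restraint. Restraint 2 and 3 were above all controls and restraint 1 below them, with a log2 fold change of 0.55 ± 0.31 (edgeR adjusted p = 0.455), or 0.16 without restraint 2. Loxl1, needed for elastic fibres, stood at 13.6, 11.1 and 11.7 CPM in controls against 6.99, 17.5 and 10.4 in restraint. The restraint libraries lay on both sides of the controls, with a log2 fold change of -0.059 ± 0.29, or -0.48 ± 0.19 without restraint 2. Loxl4 was the scarcest oxidase, with a log2 fold change of -0.78 ± 0.40, or -1.29 ± 0.36 without restraint 2. In TPM, Loxl1 was highest at 6.32 ± 1.15 in controls, then Loxl2 at 3.88 ± 0.679 and Lox at 2.60 ± 0.312, and the control libraries of these neighbours did not overlap. In restraint Lox, at 3.96 ± 2.07, and Loxl2, at 2.67 ± 1.49, stood in the reverse order, and the libraries of all 3 genes overlapped there.

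The restraint libraries differed among themselves in a pattern common to most members. Of the 39 tested members 31, or 79.5%, were highest within their group in restraint 2, where 38.0% of all tested features were. In 20 of the 39 restraint 1 was the lowest of its group, and in 16 restraint 3. Exceptions with higher values outside restraint 2 included Adamts1 and Adamtsl4, highest in restraint 1. Without restraint 2 the median log2 fold change went from -0.072 to -0.34 for the tested Adamts genes, from 0.019 to -0.22 for the Mmp genes, from 0.18 to -0.16 for the Adamtsl genes, from -0.59 to -0.85 for the lysyl oxidases and from 0.031 to -0.026 for the Timp genes. Positive log2 fold changes then stood in 3 of 11 Mmp, 4 of 15 Adamts and 2 of 5 Adamtsl genes, against 6 of 11, 7 of 14 and 3 of 5 with it. The Adamts count and median without restraint 2 include Adamts16, at -3.10. Adamts16 passed the count filter in that fit through the controls alone, where it is high. The counts were the same with and without restraint 2 for Timp, at 2 of 4, and Lox, at 1 of 5, and no member passed by edgeR in that fit. Restraint 2 was singled out as the highest for most members, so the falls without it follow from that choice and are a description. The median over all tested members was -0.32 without restraint 2, against 0.044 without restraint 1 and 0.011 without restraint 3.

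**Figure D4:**
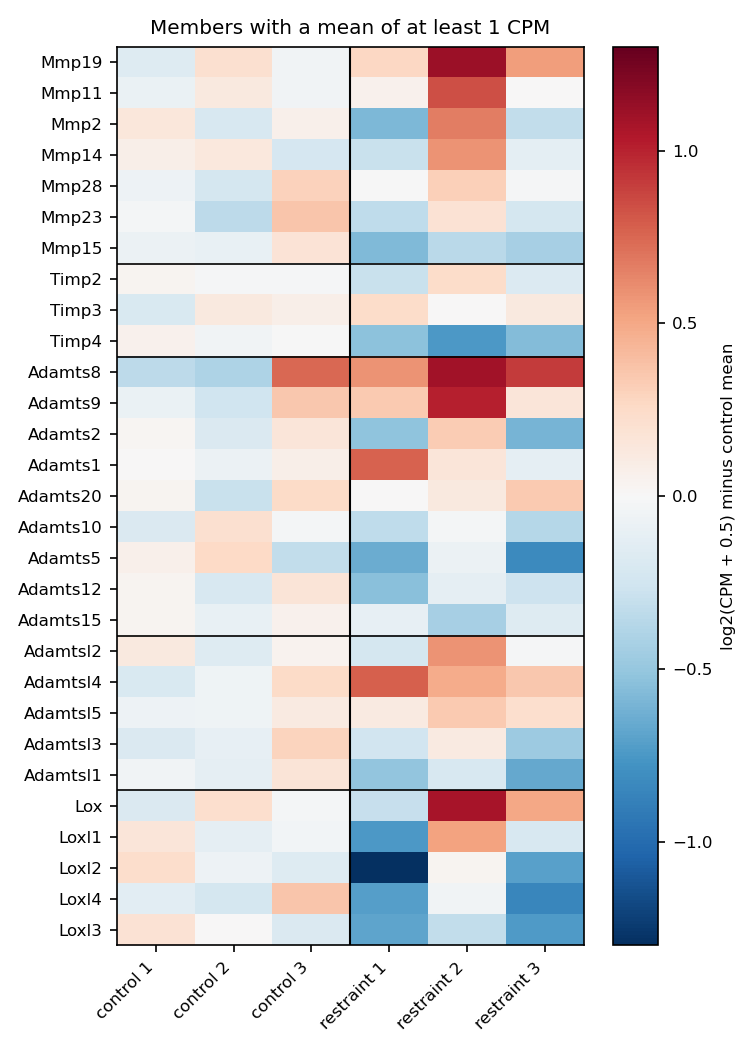
Log2(CPM + 0.5) minus the mean of the controls, per library (columns), for the 29 tested members with a mean of at least 1 CPM (rows, grouped Mmp, Timp, Adamts, Adamtsl and Lox). Of these, 20 are above the control mean in restraint 2, against 9 in restraint 1 and 9 in restraint 3.

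Substrates of these enzymes also stood highest in restraint 2 as a sum. Of 19 tested matrix substrates none passed by edgeR, DESeq2 or limma voom, and 1 had an unadjusted p under 0.05. Their summed level was 1456 to 1630.0 CPM in controls against 897, 1904 and 1088 in restraint 1 to 3. Col1a1, the main chain of collagen I, stood at 167, 163 and 149 CPM in controls against 34.5, 141 and 60.0 in restraint. All restraint libraries were below the controls, with a log2 fold change of -1.02 ± 0.41 (edgeR adjusted p = 0.282). Without restraint 2, Col1a1 and Col1a2, its partner chain, passed as lower, by -1.75 ± 0.23 and -1.29 ± 0.18 on the log2 scale (edgeR adjusted p = 0.025 and 0.0345). Restraint 2 was the highest restraint library for both genes, so these calls are a description and not support. Lum, a proteoglycan that binds collagen, had a log2 fold change of 0.36 ± 0.18, or 0.12 ± 0.13 without restraint 2, and overlapping groups.

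Among 27 tested genes of collagen processing and protease control, 1 passed. An unadjusted edgeR p under 0.05 was reached by 11 of the 27, where 15.6% of all tested features reached it. The groups did not overlap for 9 of the 27, or 33.3%, against 21.8% of all tested features, with 5 higher and 4 lower in restraint. Ccn1, a matrix-bound signalling protein, stood at 13.6 ± 1.37 CPM in controls and rose in restraint to 48.4 ± 18.8, a log2 difference of 1.83 ± 0.26 (edgeR adjusted p = 0.0182). Its libraries were at 15.2, 12.6 and 12.996 CPM in controls against 29.1, 66.6 and 49.4 in restraint, all restraint libraries above all controls. The call was lost without control 1 (edgeR adjusted p = 0.0999), control 2 (0.0686), control 3 (0.0547) and restraint 3 (0.0634), with the same direction in each. DESeq2 called Ccn1 and also Ccn2, Papln and Serpinh1, and limma voom Ccn1 alone. The log2 fold change was above 0 for 12 of the 27 and below 0 for 15 (median -0.0089).

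Markers of matrix-making cells varied by library as well, and none of the fibroblast, tendon, endothelial or pericyte markers was at 0. The sum of 8 fibroblast and fibro-adipogenic markers was 1217 to 1371 CPM in controls against 1469, 1689.7 and 1198 in restraint 1 to 3, and that of 8 tendon markers 187 to 242 CPM in controls against 83.4, 207 and 154 in restraint. None of these genes passed by edgeR or limma voom, and 0 fibroblast and 5 tendon markers had an unadjusted edgeR p under 0.05. DESeq2 called Kera (adjusted p = 0.00361) and Chad (0.036) lower. For each of the 8 tendon markers the log2 fold change was below 0 (median -0.94), at -1.34 ± 0.35 for Kera, keratocan, and -0.96 ± 0.28 for Mkx, a tendon transcription factor. Sums of 8 endothelial and 7 pericyte and smooth muscle markers overlapped between groups, at 195 to 254 and 615 to 754 CPM over all libraries. The same holds for 5 Schwann cell and 4 adipocyte markers, at 81.2 to 353 and 31.7 to 123 CPM. Of 5 chondrocyte and bone markers Bglap and Ibsp were at 0, and the sum was 0.429 to 0.755 CPM in controls and 0.171 to 0.225 CPM in restraint. Whether the cell types carry the spread of the proteases was not tested.

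**Figure D5:**
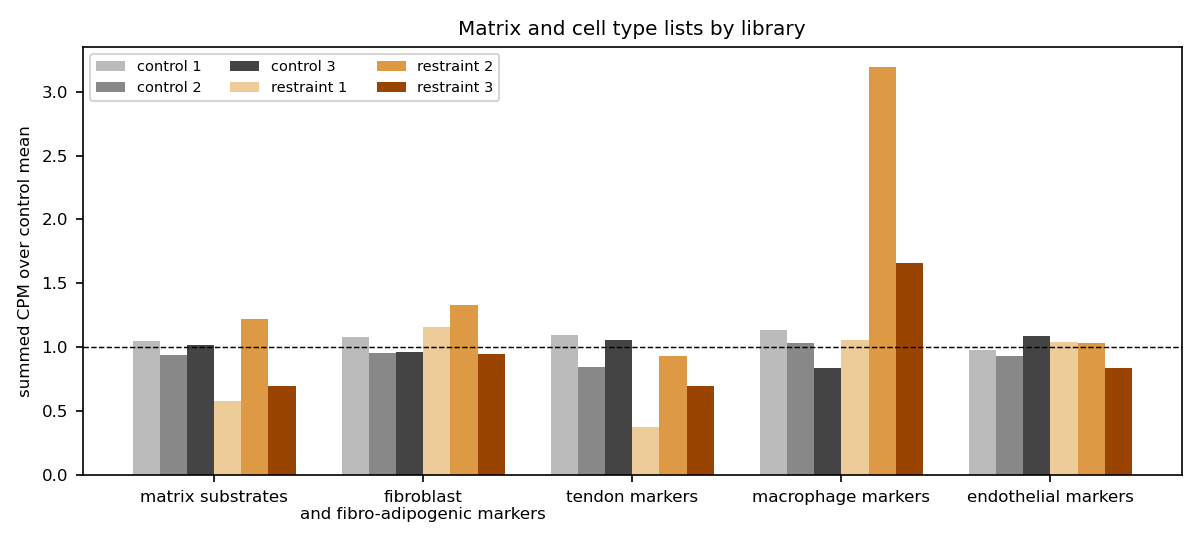
Summed CPM of 5 lists in each library, divided by the mean of the 3 controls (dashed line at 1). Macrophage markers reach 3.19 in restraint 2 and tendon markers 0.377 in restraint 1, while fibroblast and endothelial markers stay between 0.8395 and 1.33.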

How the data were processed

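PolyA RNA of 6 gastrocnemius libraries was measured. The submitters' processing notes name StringTie 2.1.3b, HISAT2 2.1.0, Trimmomatic and bcl2fastq 2.20.0, and the build GRCm38 (mm10). Their settings, and whether counting used strand, are not given in the sources used here. The deposited table, per the file headers, holds read counts, FPKM and TPM values per gene, made by the authors. Counts were tested with edgeR 4.0.16 (R 4.3.3): TMM scaling, filterByExpr with a minimum count of 10 and total of 15, the quasi-likelihood test and Benjamini-Hochberg adjustment over all 15448 tested features, with a threshold of 0.05. CPM are TMM-scaled, and a standard error is the log2 fold change divided by the root of F. Unannotated loci, 4.84% to 7.14% of counts, stayed in the fit. TPM values served for levels between genes.

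Members and lists were chosen with earlier results of these data known. Values in every library are given for called members, for tested members of at least 1 mean CPM whose groups did not overlap and for the 2 highest in mean TPM per family. Those of Mmp3, Mmp8, Mmp9, Mmp10, Mmp12, Mmp14, Mmp27, Timp1, Adamts2, Adamts3, Adamts8, Adamts16 and Loxl2 were added after their values were seen, and Col1a2 and Chad were likewise named. The alternatives were other scalings and filters, DESeq2 1.42.0, limma 3.58.1 on voom weights, on TPM and on FPKM, a replicate block and leaving out each library. The edgeR fit was tested on simulated data with changes set in advance. It recovered 12.1% of 66 changes of 1.5-fold, 53% of 66 of 2-fold and 95.3% of 64 of 4-fold. Of its 110 calls 6, or 5.45%, were false. A member that did not pass is thus not shown to be unchanged. Promoters came from RefSeq and exon overlaps from GENCODE, both on GRCm38.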

Additional observations from a re-analysis of the deposited data

How the results depend on the processing

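Timp4 was the 1 member called, of 39 tested, under the other scalings, robust dispersion, limma voom and the fit without unannotated loci and mitochondrial genes, and of 27 under the stricter filter. Without control 3, the highest control of Adamts8, the count was also 1, but the member was Adamts8 and not Timp4. Members called were 2 of 50 with no filter, where 298 of 23147 features were called, and 4 of 43 by DESeq2. Both counts include Mmp12, which was counted in restraint alone. By limma they were 0 of 20 on log2(TPM + 1) or log2(TPM + 0.1) and 0 of 14 on log2(FPKM + 1) or log2(FPKM + 0.1). Genes called among matrix substrates and collagen processing numbered 1 of 46 in the main test and 4 of 46 by DESeq2. All features called were 744 of 17258 by DESeq2, against 282 of 15448 in the main test. They were 122 and 112 of 11914 on TPM with pseudocounts of 1 and 0.1, and 153 and 155 of 10050 on FPKM. Leaving out 1 library gave 16 to 350 features, 0 to 3 members and 0 to 3 of the matrix and processing genes. The causes were not tested. Mmp2 changed sign under upper quartile factors (-0.019), limma voom (-0.080), TPM (-0.039 and -0.045) and FPKM (-0.070 and -0.085), and ranged from -0.46 to 0.25 without 1 library. Loxl1 ranged from -0.48 to 0.21 and Timp2 from -0.23 to 0.044 without 1 library. The median over the members was -0.32 without restraint 2. Among the 19 tested members followed, Timp4 held its direction in all 20 alternatives and its call in 10.

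Libraries with the same number did not deviate together: correlations of their deviations from the group mean were 0.0107, -0.260 and -0.271. With 3 libraries per group, these values cannot settle whether libraries of the same number belong together. With a replicate block, 60 features, 0 members and 0 of the matrix and processing genes were called, Timp4 stood at -0.62 (edgeR adjusted p = 0.111), Mmp2 at -0.086 and the macrophage marker Cd68 at 2.56 (0.161). At 0.0551 to 0.0731 CPM per 3 counts, members at 0 were not detectable at this depth.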

Other observations

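Of the 56 members, 27 overlap another gene in the GENCODE annotation, and 16 share exon bases with a gene on the opposite strand. Mmp11, a stromelysin at 70 to 152 reads per library, shares 155 of 2778 exon bases with Chchd10, a mitochondrial protein gene at 15610 to 21552 reads. Mmp24, a membrane-bound protease with 6 reads in all, shares 637 of 4683 with BC029722 at 1159 to 1577 reads. With the use of strand in counting unstated, the part of the partner's reads in these members was not tested.

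Adamts19 had 5 counts, all in restraint 2, the library that also held every count of Mmp8 and Mmp10. Adamts18 had 4 counts, all in control 2.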
